A study of Mus musculus with 6 samples.

Results

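The long intergenic non-coding RNA (lincRNA) probes of a mouse expression array were examined in glioblastoma stem cells with and without a hairpin against Ggct. They are the non-control probes whose systematic name is a chromosome and a coordinate range of mouse build mm9, the build the scanner files name. There were 4450 of them among 56605 non-control probes (7.86%), and they covered 3230 distinct regions. Total RNA came from a mouse glioblastoma stem cell line, named 5B in the sample titles, that was derived from tumours induced with an SB transposon. It grew as neurospheres in serum-free medium with B27, N2 and 10 ng/ml EGF and bFGF. The control group held 3 arrays of cells stably transduced by lentivirus with a non-target hairpin (NT), and the knockdown group held 3 arrays of cells transduced with hairpin mGGCTsh3. The comparison addresses what suppression of Ggct, which encodes gamma-glutamylcyclotransferase, does to transcript levels in these cells. Since 1 cell line and 1 knockdown hairpin were used, an effect of that hairpin or insertion other than loss of Ggct cannot be told apart from loss of Ggct.

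LincRNAs are transcripts without a long open reading frame that lie between protein-coding genes. Many are spliced and polyadenylated like mRNAs, but they are in general less abundant and more cell-type specific. Some act in the nucleus on chromatin or on the transcription of nearby genes, which is why the strand and the neighbourhood of a changed lincRNA are of interest. Most regions on such arrays came from transcriptome assembly or chromatin maps and have no gene symbol or known function.

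Each of the 6 arrays had a 75th percentile of signal between 812 and 1373 intensity units and no saturated spot. Values are the log2 processed signal minus that percentile of the same array, called log2 signal here. A probe was called detected on an array when the scanner software flagged it as well above background. Ggct itself fell by 2.97 ± 0.21 on the log2 scale (SE, n = 3 per group; limma adjusted p = 0.0147), from a mean of 3.58 to 0.61. Of 10 neural and glioma stem cell markers, 8 were detected on all 6 arrays, among them Sox2, Nes and Vim, and Olig2 was detected on none. Of 5 markers of microglia and macrophages, Csf1r and Itgam were detected on all 6 arrays, while Aif1, Cx3cr1 and Ptprc were detected on none. Snap25, Syt1 and Tubb3 of 4 neuronal markers, Pecam1 and Cdh5 of 4 endothelial markers and Dcn of 3 fibroblast markers were detected on all 6 arrays. No marker of these cell types passed in limma after adjustment. Of those tested, 4 of 8 stem cell markers and 1 of 2 fibroblast markers had an unadjusted limma p below 0.05. Over all probes tested that share was 19.1%. The 4 stem cell markers differed in direction. Sox2, Nes and Egfr were lower in the knockdown, with log2 fold changes of -0.34, -0.64 and -0.36, and Prom1 was higher at 1.03. The fibroblast marker, Dcn, was higher at 0.84. The signals of a list were also summed on the linear scale and the sum taken as log2. For the microglial list this ran from 3.30 to 4.04 in control and from 3.27 to 3.67 in knockdown arrays. Itgam made up most of that sum, with a control mean of 3.60 beside -0.66 for Csf1r. For the fibroblast list the value ran from -2.64 to -1.74 in control and from -1.95 to -1.13 in knockdown arrays. The part of other cell types in the results was not tested.

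The lincRNA probes were spread evenly over strands. The suffix F or R of a name was read as the forward or reverse strand of the genome, giving 2227 forward and 2222 reverse probes, and 1 name carried no strand. A region had a median length of 7204 bases, with the shortest at 62 and the longest at 538251 bases. Of the 3230 regions, 2262 had 1 probe, 968 had more, up to 8, and 832 had probes on both strands, so many members share a region and are not independent. Regions on chromosomes 1 to 19 and X were present. Gene annotation of mm9 and probe sequences were not used here, so regions are given by coordinates, and whether each lies between, within or antisense to genes was not examined.

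Detection split the class nearly evenly. On at least 3 of 6 arrays 2099 of 4450 lincRNA probes were detected (47.2%), 1775 were detected on all 6 arrays (39.9%), and 2114 were detected on none (47.5%). Control arrays 1, 2 and 3 detected 44.9%, 45.6% and 48.2% of them, and knockdown arrays 1, 2 and 3 detected 47.0%, 45.3% and 46.0%. The control arrays spanned a wider range than the knockdown arrays, so the share detected did not separate the groups. The other non-control probes were detected more often on every array, by 9.20 to 10.9 percentage points. That gap hid a split by kind of transcript. RefSeq mRNA probes were detected at 65.2% to 67.8% per array and Ensembl transcript probes at 51.3% to 53.8%, above the lincRNA probes. RefSeq non-coding probes lay below them at 34.2% to 38.0% and predicted non-coding (XR) probes at 23.3% to 27.0%. These 4 ranges over 6 arrays did not overlap with the 44.9% to 48.2% of the lincRNA probes, whereas predicted mRNA (XM) probes, at 44.6% to 47.3%, did.

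The lincRNA probes that were detected were mostly dim. Their median log2 signal on an array was 2.45 to 2.51 above the lowest signal of any probe well above background on that array, and the brightest lay 8.11 to 8.57 above the 75th percentile. Over the 2097 lincRNA probes tested below, the median signal of control arrays 1, 2 and 3 was -2.74, -2.89 and -3.07, and that of knockdown arrays 1, 2 and 3 was -3.05, -2.91 and -2.83. The lowest medians were those of control 3 and knockdown 1, the arrays with the highest 75th percentiles (1373 and 1201 intensity units). The medians over all tested probes moved less, from -0.62 to -0.56. Over single lincRNA probes, the median difference of knockdown minus control within a pair sharing a title date was -0.23, -0.02 and 0.13 for dates 1, 2 and 3, and the groups' array medians overlapped. The spread between replicate arrays was also wider in this class. The median SD was 0.24 in control and 0.25 in knockdown for lincRNA probes, against 0.19 and 0.21 for the other tested probes. Signals of any pair of arrays correlated across the lincRNA probes at 0.96 to 0.99. On the first principal component of these probes knockdown 1 stood at 20.5, nearest to control 3 at 9.21, while the other 4 arrays were below 0.

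A few members came with repeated spots, which measure the spread between spots within an array. For 5 lincRNA probes with 10 spots each, the SD between spots of an array was 0.01 to 0.06 log2 units. Their SD over the 6 arrays was 0.12 to 0.27. These 5 probes were bright, with mean log2 signals in control from 6.22 to 8.05. Their spot SD therefore does not measure the error of dim probes or the technical error between arrays. None of the 5 passed the test. The pair of probes for chr6:116123643-116124550 on the forward strand had log2 fold changes of 0.201 and 0.199 (limma adjusted p = 0.428 and 0.433), so both probes gave nearly the same difference.

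Detection rose with the length of the region and was higher on the reverse strand. The 826 probes of the 808 shortest regions, of 62 to 697 bases, were detected at 34.6%, and on single arrays at 32.7% to 36.1%. Probes of regions of 698 to 7201 bases were detected at 48.5%, of 7207 to 21021 bases at 49.5%, and of 21044 bases or more at 51.7%, with single arrays at 49.2% to 52.6% in the longest group. The step thus lay between the shortest regions and the rest. Of reverse probes 48.7% were detected and of forward probes 45.6%, and the reverse strand was ahead by 2.71 to 3.88 percentage points on each array. The array values are repeat readings of the same probe sets, so their narrow range does not measure the spread over lincRNAs.

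Chromosomes differed more than arrays did. Chromosome 17 had the highest share of lincRNA probes detected, 145 of 249 (58.2%), followed by chromosome 14 at 54.8% and chromosome 4 at 53.2%. Chromosome 3 had the lowest, 102 of 262 (38.9%), next to chromosome 12 at 39.1% and chromosome 9 at 40.9%. Single arrays ranged from 55.8% to 59.4% on chromosome 17 and from 37.0% to 40.8% on chromosome 3, so their order did not depend on the array. The neighbours 12 and 3 in that order overlapped over arrays. On chromosome X 45.4% of 174 probes were detected, close to the class as a whole.

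Where a region had probes on both strands, detection was often on 1 strand only. Of 832 such regions, taking 1 probe per strand, 253 were detected on both strands, 154 on the forward strand only, 213 on the reverse strand only and 212 on neither. The probes were alike, both or neither detected, in 55.9% of regions, and on single arrays in 53.4% to 57.0%. For comparison, 316 pairs of probes lay in the same region on the same strand, and they were alike in 68.4%, with 65.5% to 69.6% on single arrays. Even on the same strand, 100 of 316 pairs had 1 detected probe and 1 not detected. Among 859 pairs of next regions within 100 kb on the same strand, 57.3% were alike.

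Of the 2097 lincRNA probes detected on at least 3 arrays with a usable spot on every array, 25 passed the threshold between knockdown and control, 18 higher and 7 lower (limma, Benjamini-Hochberg adjusted p below 0.05 over all 31804 probes tested). That was 1.19% of the lincRNA probes, beside 1.75% of all probes tested. Higher calls made up 0.858% of the lincRNA probes, against a background of 1.16%. Lower calls made up 0.334%, against 0.591%. Arrays measure bulk RNA, so fewer cells with a transcript and less of it per cell cannot be told apart. All 25 calls rest on the 6 arrays together. With the date pair as a replicate block, 0 lincRNA probes passed in limma, and so did 0 of all 31804 probes. The adjusted p of the 25 then ran from 0.0873 to 0.143. With the block, 285 lincRNA probes had an unadjusted limma p below 0.05 (13.6%, beside 17.5% of all probes). Without the block there were 283. Without control 1, 2 or 3, or without knockdown 2 or 3, 0 passed in limma, while 101 to 133 were higher and 95 to 195 lower at an unadjusted p below 0.05. Without knockdown 1, 2 rises and 1 fall passed. All 25 kept their direction in each of these fits. Shares over all probes are not given for the fits without 1 array.

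The class as a whole moved little. Its median log2 fold change was -0.04, beside -0.01 over all probes tested, with 913 lincRNA probes above 0 and 1184 below. The central 80% of lincRNA probes lay between -0.48 and 0.36. At an unadjusted limma p below 0.05, 283 lincRNA probes differed (13.5%), beside 19.1% of all probes. The direction was the same in all 3 date pairs for 703 lincRNA probes (33.5%), beside 42.9% of all probes. Groups did not overlap for 189 probes higher in the knockdown (9.01%, beside 14.5% of all probes) and for 203 lower (9.68%, beside 12.4%). All of these shares lay below the background of the array. The median SE of a fold change was 0.20 for lincRNA probes and 0.18 over all probes.

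The forward probe of chr17:13008796-13023201 had the largest rise past the threshold among members detected on all arrays. Its log2 signal was -3.38, -3.22 and -3.07 in control arrays 1 to 3 and -0.99, -2.03 and -1.90 in knockdown arrays 1 to 3. Every knockdown array was above every control array, and knockdown 1 was the highest. The probe rose by 1.58 ± 0.28 on the log2 scale (SE; adjusted p = 0.048 in limma), or by 1.26 without knockdown 1. The other forward probe of the same region was -3.72, -3.69 and -3.45 in control and -2.19, -2.94 and -2.86 in knockdown arrays. It had a log2 fold change of 0.95 ± 0.22 (SE) and did not pass (limma adjusted p = 0.080), and a region overlapping on the reverse strand was not detected on any array.

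The forward probe of chr14:77077374-77086910 had the smallest p of the class. It measured -2.78, -2.65 and -2.89 in control and -1.17, -1.55 and -1.47 in knockdown arrays, without overlap. It rose 2.60-fold (1.38 ± 0.15 log2 units, SE; adjusted p = 0.0287 in limma). It was among the 3 probes that still passed without knockdown 1 (limma adjusted p = 0.0415). Its neighbours were not called. In all, 6 tested probes of 3 regions lying 14081 to 40988 bases away had log2 fold changes from -0.35 to 0.05, and none passed.

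The reverse probe of chr4:124127144-124334840 rose, and the forward probes of the region did not pass. It measured -2.19, -2.74 and -2.14 in control and -0.92, -1.40 and -0.93 in knockdown arrays, a 2.41-fold rise (1.27 ± 0.22 log2 units, SE; adjusted p = 0.047 in limma). The 3 date pairs were close, at 1.27, 1.34 and 1.21. Forward probes of that region had log2 fold changes of -0.44 ± 0.25 and 0.12 ± 0.15 (SE), and neither passed. A probe of a shorter reverse region inside it, chr4:124206166-124334412, was at 0.06.

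Another 5 rises reached 2-fold or more. The reverse probe of chr1:135956616-135957485 went from -3.55, -3.31 and -3.30 in control to -1.68, -2.41 and -2.33 in knockdown arrays, a 2.38-fold rise. The forward probe of chr2:176264400-176302925 rose 2.21-fold, and the reverse probe of its region had a value of 0.29 that did not pass. On chromosome 15, the forward probe of chr15:38205154-38206196 rose 2.12-fold, from -4.38, -4.49 and -4.07 to -3.17, -3.16 and -3.35. On chromosome 2, the reverse probe of chr2:174945941-174946507 was at 1.23, 1.54 and 1.52 in control and 2.76, 2.33 and 2.42 in knockdown arrays, and rose 2.10-fold (1.07 ± 0.17 log2 units, SE; adjusted p = 0.0408 in limma). The nearest tested region on its strand, chr2:174917150-174935618, had a value of 0.69 ± 0.15 (SE, limma adjusted p = 0.0702). In all of these the groups did not overlap. The remaining rise of 2-fold or more, the forward probe of chr17:80133213-80144417, was detected on all 3 knockdown arrays and on no control array. It is therefore given as at least 2.08-fold higher in the knockdown, where the bound sets each control array at the lowest signal well above background of that array. Such a bound compares means and does not cover the spread between arrays.

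The other 10 rises were smaller, with log2 fold changes from 0.69 to 0.97. Among them were chr12:88172043-88172731 (reverse, 0.97 ± 0.15, SE), chr2:150072436-150074859 (forward, 0.94 ± 0.14), chr13:28700385-28760363 (reverse, 0.89 ± 0.13) and chr3:90425270-90435820 (forward, 0.83 ± 0.13). On chromosome 12, the forward probe of chr12:50490638-50508093 measured 3.54, 3.65 and 3.56 in control and 4.28, 4.16 and 4.37 in knockdown arrays, a rise of 1.61-fold (limma adjusted p = 0.0499). Its groups lay apart by more than the range within either, although its adjusted p was the highest of the 25. Within chr13:54399275-54445825 a reverse probe rose 1.72-fold, while the other reverse probe of that region was at -0.41 ± 0.31 (SE).

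Both probes that passed in chr18:5119300-5181600 lay on its reverse strand and gave nearly equal values. One measured -1.59, -1.64 and -1.41 in control and -0.62, -0.89 and -0.75 in knockdown arrays. The other measured -1.53, -1.34 and -1.28 in control and -0.48, -0.71 and -0.58 in knockdown arrays. Their log2 fold changes were 0.79 ± 0.14 and 0.79 ± 0.14 (SE; limma adjusted p = 0.047 and 0.0473). The remaining reverse probe of the region was at 0.09 ± 0.17 (SE), the forward probe was not detected on any array, and 3 reverse probes of the enclosed region chr18:5162836-5165729 were at 0.08, 0.11 and 0.39. This was the only region with more than 1 probe past the threshold.

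Both called regions near 62 Mb of chromosome 15 lay 374 bases apart on the forward strand. The probe of chr15:62007025-62090191 measured -1.78, -1.64 and -1.63 in control and -0.74, -0.92 and -0.84 in knockdown arrays, a 1.80-fold rise (0.85 ± 0.12 log2 units, SE; adjusted p = 0.0393 in limma). The probe of chr15:62090565-62091770 measured 0.52, 0.91 and 0.80 in control and 1.81, 1.67 and 1.66 in knockdown arrays, a 1.96-fold rise (0.97 ± 0.15, SE; limma adjusted p = 0.0398). Neither pair of groups overlapped, and both values were larger in date pair 1 than in the others. Of the other forward probes within 100 kb, chr15:61870759-61938796 had a value of 1.12 ± 0.30 (SE), with control at -2.96, -4.00 and -4.02 and knockdown at -2.61, -2.71 and -2.28. The surrounding region chr15:61984389-62102500 had forward probes at 0.67 ± 0.18 and -0.37 ± 0.27 (SE), so its probes disagreed in direction. None of these 3 passed. On the reverse strand the probes of chr15:61919018-61935580, which lies inside the first of these forward regions, had values of -1.20 ± 0.28 and -1.09 ± 0.38 (SE; limma adjusted p = 0.081 and 0.187). The first measured -3.28, -4.33 and -3.39 in control and -4.76, -5.00 and -4.86 in knockdown arrays, without overlap.

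The 7 falls included 2 probes that were lost from detection in the knockdown. The forward probe of chr8:129102060-129109035 was detected on all 3 control arrays and on no knockdown array, and is at least 1.27-fold lower. The reverse probe of that region did not differ beyond the spread, at -1.89, -1.92 and -1.52 in control and -1.71, -1.88 and -1.73 in knockdown arrays (log2 fold change 0.01 ± 0.15, SE). Likewise, the forward probe of chr2:60581618-60589968 was detected in control only, and is at least 1.62-fold lower. A second forward region with the same start, chr2:60581618-60589907, measured -3.07, -3.04 and -3.86 in control and -7.27, -4.63 and -4.79 in knockdown arrays. Its groups did not overlap either, and knockdown 1 was far below the others. It was not well above background on knockdown 1, so the size of its difference rests in part on an undetected value, and it did not pass (limma adjusted p = 0.145).

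Of the falls measured in both groups, the reverse probe of chr5:23195569-23218551 was the largest. It measured 0.46, 0.25 and 0.38 in control and -1.03, -0.68 and -0.57 in knockdown arrays, which is 46.0% of control (-1.12 ± 0.16 log2 units, SE; adjusted p = 0.0378 in limma). The other probes of the region, 1 on each strand, were at -0.98 ± 0.48 and -1.24 ± 0.67 (SE) and did not pass. In both, control 3 lay within the range of the knockdown arrays. The reverse probe of chr4:146507925-146532650 measured 2.17, 2.24 and 2.68 in control and 1.45, 1.44 and 1.35 in knockdown arrays, 51.6% of control. The other reverse probe of that region gave -0.90 ± 0.17 (SE) and missed the threshold narrowly (limma adjusted p = 0.0518). The remaining falls were chr6:31007184-31007725 at 52.6% of control, chr10:93975406-93977476 at 53.6% and chr8:47813487-47824869 at 53.7%, all on the reverse strand. The last was detected on all 3 control arrays and on 2 knockdown arrays.

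Signal near background limited some of these sizes. Of the 25, 21 were detected on all 6 arrays (1.18% of such lincRNA probes, beside 1.58% of all such probes). Another 1 rise and 2 falls were detected in 1 group only. They passed the detection filter through that group alone, so their calls are not independent of the filter. With the normexp background correction 14 of the 25 passed, and the log2 fold change of chr15:38205154-38206196 was 0.34 and that of chr13:28700385-28760363 was 0.13, whereas that of chr12:50490638-50508093 was 0.69 under both. The offset of normexp shrinks the folds of dim probes by construction.

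Rather than the adjusted p, the size of the difference in every date pair can be read. In all 3 pairs at least 2-fold higher were 9 lincRNA probes (0.429%, beside 0.745% of all probes), and 1 was at least 2-fold lower (0.0477%, beside 0.211%). Of the 9, 4 had also passed the threshold, and so had the 1 fall, chr8:129102060-129109035. Of the 5 that had not passed, the forward probe of chr6:57583950-57624216 measured -3.54, -3.70 and -3.13 in control and -1.01, -2.28 and -1.89 in knockdown arrays, with pairs at 2.53, 1.43 and 1.25. Another, the forward probe of chr17:26911397-26917047 had pairs at 1.66, 1.20 and 1.03, and that of chr2:50152329-50289487 at 1.05, 1.30 and 1.20. The reverse probe of chr1:194659312-194661407 had pairs at 1.98, 1.52 and 1.51 and was detected on 2 of 3 control arrays. The fifth, chr13:58474388-58487288, was detected in the knockdown only. These values are descriptions, since the probes were chosen for their size.

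Some lincRNA probes were detected in 1 group only. All 3 knockdown arrays and no control array detected 4 lincRNA probes of 4450, and the reverse held for 6. The share over all probes is not given, so these counts cannot be set against the array. Besides those already given, chr13:58474388-58487288 (reverse) gained at least 2.30-fold in the knockdown, chr8:105742425-105852975 (forward) at least 1.63-fold and chr5:53931541-53945241 (reverse) at least 1.41-fold. Among control-only probes, the reverse probe of chr8:126396600-126407275 was at least 1.80-fold lower, and chr3:27837825-27880925 and chr6:86480265-86481192, both forward, at least 1.36-fold and 1.31-fold. The last of the control-only probes, chr7:16584852-16657252 (reverse), was at least 1.19-fold lower. None of these 7 passed (limma adjusted p = 0.0634 to 0.208). The second forward probe of the chr8:105742425-105852975 region was detected on all 6 arrays and was 2.15 times the control level (limma adjusted p = 0.0535).

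Differences between knockdown and control were closer for probes of the same region and strand than for probes of its opposite strands. Over 115 same-strand pairs with both probes tested, the log2 fold changes correlated at r = 0.56 (Spearman rho 0.46), 71 pairs had the same sign, and the median distance between the values was 0.19. Over 252 opposite-strand pairs r was 0.12 (rho 0.065), 122 pairs had the same sign and the median distance was 0.27. Next regions on the same strand within 100 kb lay between in correlation, with r = 0.41 (rho 0.40) over 185 pairs. In sign they did not lie between. Of these pairs 119 had the same sign (64.3%), beside 61.7% in the same region and strand and 48.4% on opposite strands. These correlations run across pairs that share the same 6 arrays and are descriptions without a test. Around the 25 called probes, 32 of 38 tested links to same-strand probes within 100 kb had the same sign as the called probe, and 9 of 20 links to opposite-strand probes did. Some of these links share a probe, and 4 called probes had a called neighbour. Both called probes of chr18:5119300-5181600 gave 5 same-strand links each, all of the same sign, to each other and to the same further probes. The share for uncalled probes is not given.

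Whether the strands of a region responded unequally was tested on the difference of forward minus reverse log2 signal on each array. Of 269 regions with tested probes on both strands, 0 passed (limma adjusted p below 0.05), and 19 had an unadjusted p below 0.05 (7.06%). All 269 are lincRNA regions, so this test has no background from other probes. The smallest adjusted p was 0.0605, shared by chr4:124127144-124334840 and chr8:129102060-129109035, the regions of a called rise and a called fall. In the first the mean difference between strands went from -1.87 in control to -3.30 in knockdown, a change of -1.43 with a 95% interval from -1.97 to -0.89. In the second the change was -1.85 with an interval from -2.59 to -1.10. Its forward probe was not detected in the knockdown and entered the test through the control arrays alone.

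In the regions with the most probes, most probes were not detected. The region with the most, chr12:45415565-45423519 with 8 probes on both strands, had 1 probe detected on 1 array and 7 detected on none. In chr14:65720392-65769859, 1 of 7 probes was detected on all 6 arrays (log2 fold change -0.48 ± 0.32, SE), 1 on 1 array and 5 on none. In chr10:56151791-56184966, 2 of 7 could be tested, with values of -0.34 ± 0.28 and 0.35 ± 0.15 (SE). None of these passed.

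The called probes lay on 14 of 20 chromosomes, 12 on the forward and 13 on the reverse strand. Chromosome 2 had the most, with 3 higher and 1 lower of 134 tested. Chromosome 15 followed with 3 higher of 95, of which 2 lay 374 bases apart. Over the class 1.19% of lincRNA probes passed, beside 1.75% of all probes, and differences between chromosomes were not tested. On chromosomes 7, 9, 11, 16, 19 and X 0 passed, and their medians lay between -0.07 and 0.02. Chromosome 8 had the lowest median, -0.13, and 2 of its 123 tested probes passed, both lower.

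Long non-coding RNAs with a gene name were too few to set against the array. Of 32 listed, 27 had a named probe, 19 were tested, and 0 rose or fell past the threshold (limma adjusted p below 0.05, beside 1.75% of all probes; 2 had an unadjusted p below 0.05, beside 19.1%), with a median log2 fold change of -0.06. Among these named probes that of Pvt1, a lncRNA gene next to Myc, came nearest. Its mean was 2.92 in control and 3.42 in knockdown arrays, and the groups did not overlap (0.50 ± 0.13 log2 units, SE; adjusted p = 0.0974 in limma). Oip5os1, also known as Cyrano, and the imprinted Peg13 were at 0.46 ± 0.16 and 0.45 ± 0.20, and Norad, a lncRNA linked to genome stability, at -0.30 ± 0.14 (SE). Neat1, the scaffold of paraspeckles, was at -0.03 ± 0.18 (SE). Meg3, H19 and Xist were detected on no array. Coordinate-named probes were not assigned to genes. Whether any of them, called or not, lies within Pvt1 or another listed gene was therefore not examined.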

How the data were processed

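Per the file headers, Feature Extraction 11.0.1.1 gave each spot a linear intensity with the background removed. Its 0 or 1 flags for detection and outliers were used as deposited. The deposited value table holds log2 values, equal within 0.01 to the log2 processed signal less a constant of each array (9.05 to 9.75). All arrays share 1 slide and 1 scan date. Per the labels' protocols, Cy3-labelled cRNA was made from 0.1 µg of total RNA. Titles give the groups, and replicate numbers follow the dates in them. Each date is shared by 1 control and 1 knockdown array, but separate cultures are not named, and p-values cover only the spread among these arrays, which may be technical. Deviations of paired arrays correlated at -0.17, 0.60 and -0.34.

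Outlier spots were left out and spots of a probe averaged as log2. The 75th percentile over non-control probes was subtracted. Of 56605 probes, 12 were left out, 2 of them lincRNA probes, for having only outlier spots on some array. The 31804 probes detected on 3 or more of 6 arrays were fitted together with limma 3.58.1 in R 4.3.3 (lmFit, eBayes, two-sided, no block), and p-values were adjusted over all of them. The number of arrays limits the precision. A probe detected in 1 group only has a lower bound: each undetected array is set to its lowest signal well above background, or to the probe's own value if higher. The bound does not cover the spread between arrays. The fit was tested on simulated data. Members and lists were chosen with earlier results of these data known. The text names all calls, one-group members (4 per direction), regions with the most probes and neighbours within 100 kb. Probes at least 2-fold different in all pairs, and those with 10 spots, were named after their values were seen. RefSeq names (GRCm38) came through accessions, for 32994 probes. A gene's brightest probe was used. Files lack the mean signal column, so normexp (offset 50) used the median signal. Python 3.11.15 and pandas 2.3.3 were used.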

Additional observations from a re-analysis of the deposited data

How the results depend on the processing

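All 25 called lincRNA probes kept their direction under every alternative run that could fit them. Counted anew over all lincRNA probes tested, the 18 higher and 7 lower calls became 0 and 0 with the replicate block. With that block 0 of all 31804 probes passed as well. The counts were 11 and 4 with normexp, and 1 and 0 without a filter on dim probes. With quantile normalization 9 were higher, and the lower count is not given. Apart from the block, shares over all probes are not given for these runs. Their counts therefore cannot be set against the array. Of the 25 probes themselves, 14 passed with normexp, 14 with quantile normalization and 0 without a filter. Leaving out 1 array at a time gave 0 to 2 higher and 0 to 1 lower. The causes were not tested, except that without a filter 56593 probes were tested in place of 31804, and with 5 arrays fewer samples entered. The share detected, 47.2%, was 70.6% with the weaker flag of a positive and significant signal and 39.9% when all 6 arrays were required. Probes at least 2-fold different in all pairs were 9 higher and 1 lower. These counts were 36 and 22 at 1.5-fold, 0 and 0 with normexp, and 3 lower with quantile normalization. For these alternatives too, shares over all probes are not given. The scaling over probes detected on all arrays, the filter on all 6 arrays and the deposited table kept both counts of calls within 1.5 times. The count of 0 regions with unequal strands was the same under each alternative run, the replicate block included. Signal near background limits what dim probes can show.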
